A study of Mus musculus with 4 samples.

Results

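The genes described here are 43 genes of the S, G2 and M phases of the cell cycle, measured in single CD11b+ cells sorted from MC38 tumors, a mouse colon carcinoma line. They comprise 14 genes of DNA replication (S members), 28 genes of chromosome condensation, spindle assembly and mitotic exit (G2 and M members), and Stmn1, which is given alone. The members were chosen by symbol. The rule asked for at least 20 unique molecular identifiers (UMIs, each standing for 1 captured RNA molecule) over both gene expression libraries, and 43 of 43 symbols passed, as did 13657 genes of the matrices in all. The recipients were bone marrow chimeras of the C57/BL6 strain, and the groups were WT bone marrow and VISTA KO bone marrow, in which Vsir, the gene of the checkpoint receptor VISTA, is knocked out. After 6 weeks of reconstitution MC38 cells were inoculated, and tumors were taken at a diameter of 9 to 10 mm. The labels say that tumors were pooled, that CD45.1 against CD45.2 staining told WT from KO cells, and that 10000 viable sorted cells were loaded on a droplet instrument together with tags for CD11c, Ly6C and Ly6G. Each group is thus 1 library, so there is no replicate, no test and no replicate error. Intervals are 95% intervals for counting error only. Sex, age and the host cells that remained in the chimeras are not given in the labels.

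After filtering, 10193 WT cells (median depth 4692 UMIs) and 15140 VISTA KO cells (median depth 4212.5 UMIs) were kept. Vsir stood at 136.5 CPM (counts per 1000000 UMIs) in the WT library and 46.2 CPM in the VISTA KO library. Which part of Vsir was deleted is not given, so a 3' count of it does not check the labels fully. The cells are labelled tumor infiltrating myeloid suppressor cells, but the clusters also held NK cell-like, T cell-like, fibroblast-like and dendritic cell-like cells, and a cluster of 1976 WT and 806 VISTA KO droplets that carried both neutrophil and macrophage markers. The nuclear RNA Malat1, which tends to be high in damaged cells, was at 10148 CPM in the WT and 13406 CPM in the VISTA KO library. Its part in the differences given here was not tested.

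A dividing cell first loads the Mcm helicase on DNA and copies its genome in S phase, then condenses and separates its chromosomes in G2 and M. The S genes are known to be driven mainly by E2F factors. Many G2 and M genes are repressed outside those phases through a promoter element named the cell cycle genes homology region (CHR), which the DREAM and MuvB complexes bind, often beside CCAAT boxes bound by NF-Y. Monocytes and neutrophils in tissue mostly do not divide, whereas tissue macrophages can renew by division. In tumors both recruited monocytes and local division are known to supply macrophages.

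Many promoters of the members show these elements, and a few are printed as examples. Each line gives the 150 bases just before the RefSeq start in GRCm38.p6, 5' to 3' on the gene's own strand. Capitals mark the letters searched on both strands, which are the CHR core (spelled TTTGAA, and also searched with C at its centre as TTCGAA), the NF-Y box (spelled CCAAT) and, for E2F, TTTCCCGC, TTTGGCGC, TTTCGCGC or TTTGCCGC. A CHR core on the other strand reads TTCAAA here, an NF-Y box there reads ATTGG, and an E2F site is likewise reversed, and E2F matches can overlap. Cdc20, Kif11, Ube2c and Cdk1 hold a CHR core and an NF-Y box, Mcm6 is shown as the S member with the most E2F matches, and Pttg1 holds none of these letters. Of the other G2 and M promoters only Mki67, Top2a and Ckap2l hold a CHR core in the 150 bases, and the S member Mcm2 holds one too. Birc5, Nusap1 and Tacc3, like Pttg1, hold none of the letters. Of the 12 S promoters only Mcm5 and Mcm6 have an E2F match in the 150 bases, and Tyms, Tk1 and Dut hold none of the letters there.
Cdc20 (activator of the anaphase ubiquitin ligase), chr4:118437344-118437493, minus strand: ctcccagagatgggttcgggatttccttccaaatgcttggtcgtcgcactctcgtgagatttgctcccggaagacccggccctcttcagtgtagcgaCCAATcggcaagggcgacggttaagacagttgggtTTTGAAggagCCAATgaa
Kif11 (spindle motor), chr19:37376232-37376381, plus strand: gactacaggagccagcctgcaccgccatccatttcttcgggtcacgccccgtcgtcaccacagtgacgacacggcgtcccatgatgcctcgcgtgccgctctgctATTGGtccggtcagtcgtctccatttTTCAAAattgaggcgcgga
Ube2c (ubiquitin-conjugating enzyme of mitotic exit), chr2:164769779-164769928, plus strand: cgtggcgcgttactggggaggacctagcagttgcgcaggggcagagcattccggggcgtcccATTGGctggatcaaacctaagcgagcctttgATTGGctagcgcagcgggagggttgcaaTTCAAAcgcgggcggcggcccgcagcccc
Cdk1 (mitotic kinase), chr10:69352913-69353062, minus strand: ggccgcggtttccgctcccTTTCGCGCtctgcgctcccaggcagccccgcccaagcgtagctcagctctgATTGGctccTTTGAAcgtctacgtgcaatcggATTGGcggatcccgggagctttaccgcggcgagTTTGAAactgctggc
Mcm6 (replicative helicase), chr1:128359706-128359855, minus strand: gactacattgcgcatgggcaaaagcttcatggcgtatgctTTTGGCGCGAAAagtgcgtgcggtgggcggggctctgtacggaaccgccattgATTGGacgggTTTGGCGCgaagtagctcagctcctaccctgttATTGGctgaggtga
Pttg1 (securin), chr11:43425982-43426131, minus strand: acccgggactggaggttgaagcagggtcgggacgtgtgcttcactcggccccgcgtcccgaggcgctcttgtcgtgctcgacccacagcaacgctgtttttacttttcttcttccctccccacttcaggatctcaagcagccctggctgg

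The promoter table matched 36 of the 43 members, 12 of the S and 24 of the G2 and M members. Mcm4, Gins2, Ccna2, Tpx2, Aurkb, Smc4 and Stmn1 were not matched. In the 250 bases before the start and the 50 after it, 18 of 24 G2 and M promoters (75%) and 2 of 12 S promoters held a CHR core, beside 19.4% of all 27025 genes in the table. An E2F match stood in 4 of 12 S promoters and 1 of 24 G2 and M promoters, beside 2.32% of all genes. An NF-Y box stood in 20 of 24 G2 and M and 9 of 12 S promoters, beside 37.9% of all genes. With only the 250 bases before the start, the CHR count was 9 of 24 (37.5%), beside 17.4% of all genes, so the remaining matches lay wholly or partly in the 50 bases after the start. A match describes letters only. The Pttg1 window precedes the 1 start in the table, which lies inside the RefSeq gene (chr11:43420244-43427463), so another start is not covered. The windows of Dut, Cdca3, Mcm7 and Aurka also lie inside their RefSeq genes. Those of some others, such as Tyms and Tk1, lie there in part, and the same limit holds for all of these.

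Over all kept cells the S members and the G2 and M members differed between the libraries in different ways. The summed S members stood at 180.8 CPM in WT and 184.9 CPM in VISTA KO cells, a log2 ratio (VISTA KO over WT throughout) of 0.03 with an interval of -0.0031 to 0.07. The summed G2 and M members stood at 294.0 CPM in WT and 183.1 CPM in VISTA KO cells, a log2 ratio of -0.68 (-0.71 to -0.65). Pttg1 alone gave 5059 of the 18141 WT UMIs of that sum, and without it the log2 ratio was -0.41 (-0.44 to -0.37). Neutrophil markers summed to 5588 CPM in the WT and 1649 CPM in the VISTA KO library, NK cell markers to 1042 and 645 CPM, and their part in these totals was not tested. Without the NK cell-like, T cell-like, fibroblast-like and mixed NK cell and macrophage clusters as well, it was -0.19 (-0.23 to -0.15), at 172.9 against 151.5 CPM. Stmn1, whose product stathmin destabilizes microtubules, stood at 35.2 CPM in WT and 21.5 CPM in VISTA KO cells. In a sum over cells, fewer cells that carry the RNA and less RNA in each cannot be told apart, and the counts per cell are given further on.

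**Figure D1:**
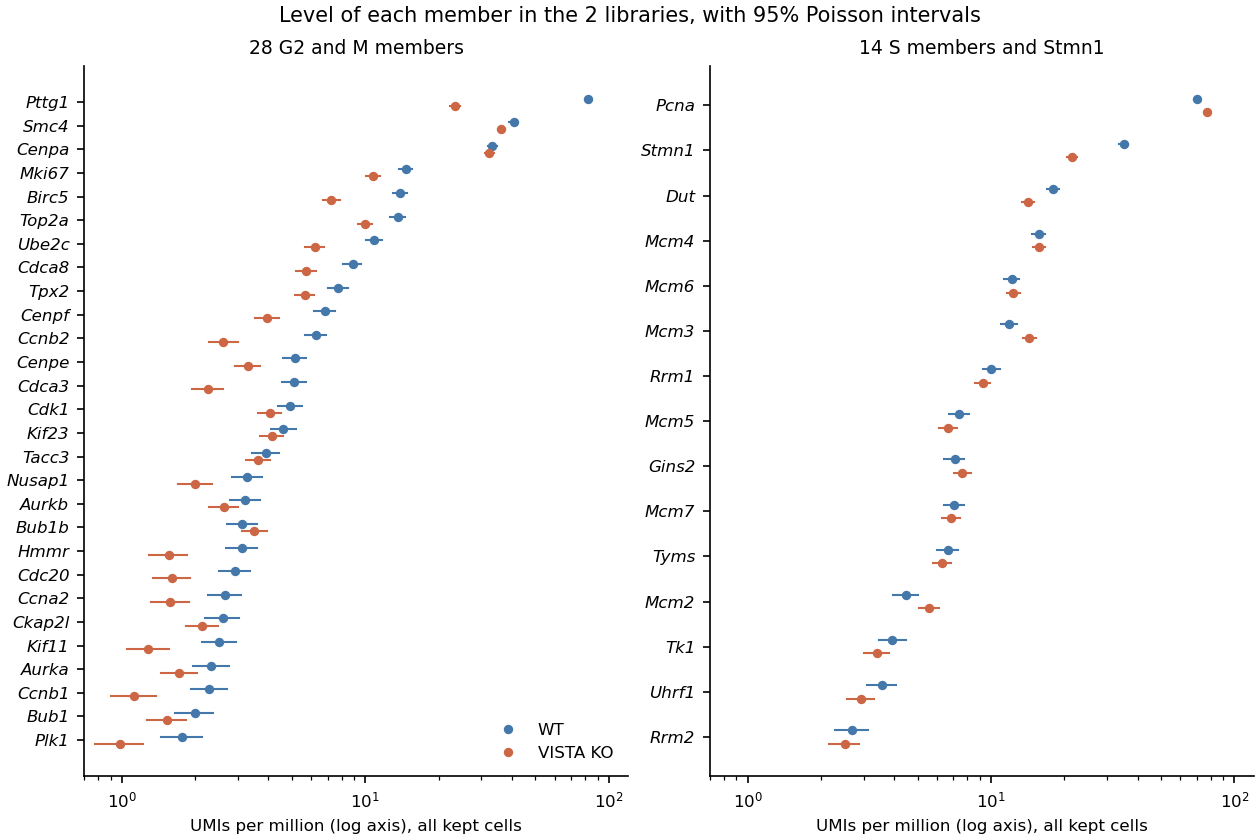
Level of each member over all kept cells in CPM (log axis), WT in blue and VISTA KO in red, with 95% Poisson intervals; left the 28 G2 and M members, right the 14 S members and Stmn1, ordered by the WT level. Pttg1 stands at 82.0 against 23.4 CPM and most G2 and M members are lower in VISTA KO, while the S members lie near each other.

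A member was called different in size where its ratio was at least 1.5-fold, among genes with at least 20 UMIs in the cells compared. By this rule 16 of 43 members were lower and 0 were higher in VISTA KO cells, beside 6.35% of 13656 genes lower and 7.65% higher. The 16 were 15 of the 28 G2 and M members and Stmn1, and none of the 14 S members. At 2-fold, 4 members remained lower and 0 were higher, beside 405 genes lower and 368 higher of 13656. The median log2 ratio was -0.64 over the G2 and M members and -0.06 over the S members, beside 0.08 over all genes. Of the G2 and M members 27 lay below 0, and Bub1b, a kinase-like protein of the spindle checkpoint, was the exception with 193 UMIs in WT and 281 in VISTA KO cells (log2 ratio 0.16, -0.11 to 0.43).

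Among the cyclins, Ccnb2 stood at 6.26 CPM in WT (386 UMIs) and 2.62 CPM in VISTA KO cells (210 UMIs), 2.39-fold lower in VISTA KO. Ccnb1, the other B-type cyclin, stood at 2.29 and 1.12 CPM, and Ccna2, the cyclin of S phase and G2, at 2.64 and 1.58 CPM. All 3 cyclins were thus past 1.5-fold. Their kinase Cdk1 was not, at 4.91 CPM in WT and 4.06 CPM in VISTA KO cells (log2 ratio -0.27, -0.50 to -0.04).

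Genes that shape the chromosomes lay within 1.5-fold. Mki67, which coats mitotic chromosomes and is the usual proliferation marker, stood at 14.6 CPM in WT (903 UMIs) and 10.8 CPM in VISTA KO cells (865 UMIs), a log2 ratio of -0.44. Top2a, the topoisomerase that untangles sister DNA, stood at 13.6 and 9.98 CPM, a log2 ratio of -0.45. Smc4, a condensin subunit, stood at 40.7 and 36.2 CPM. The proliferation markers were therefore lower in the same direction as the cyclins, by a smaller ratio.

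The chromosomal passenger complex, which corrects chromosome attachment, was uneven. Birc5 (survivin) stood at 13.9 CPM in WT and 7.26 CPM in VISTA KO cells, a log2 ratio of -0.93 (-1.09 to -0.78). Cdca8 (borealin) stood at 8.86 and 5.72 CPM, a ratio of -0.63, and the kinase Aurkb at 3.21 and 2.63 CPM, a ratio of -0.29 (-0.57 to -0.00063). The centromere genes were uneven too: the motor Cenpe (-0.64) and Cenpf (-0.78) were past 1.5-fold, while Cenpa, the histone H3 variant of the centromere, was at 33.3 and 32.4 CPM (-0.04, -0.12 to 0.04). 

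Of the checkpoint and mitotic kinases, Plk1 stood at 1.77 CPM in WT and 0.98 CPM in VISTA KO cells and was past 1.5-fold, whereas Aurka (-0.44) and the checkpoint kinase Bub1 (-0.38) were not. Of the spindle genes, Hmmr (3.11 and 1.56 CPM), Kif11 (-0.97) and Nusap1 (-0.71) were past 1.5-fold, and Tpx2 (-0.46), Ckap2l (-0.28), Kif23 (-0.16) and Tacc3 (-0.10) were not. The 4 members listed as destruction machinery of mitosis and its substrates, Cdc20, Ube2c, Pttg1 and Cdca3, were each past 1.5-fold. Cdc20 stood at 2.92 and 1.61 CPM, Ube2c at 10.9 and 6.19 CPM, Cdca3, which acts in entry to mitosis, at 5.10 and 2.25 CPM, and Pttg1, the securin that holds sister chromatids together until anaphase, at 82.0 and 23.4 CPM.

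The S members were close in the libraries. Pcna, the sliding clamp of DNA polymerase, stood at 70.3 CPM in WT (4335 UMIs) and 77.2 CPM in VISTA KO cells (6194 UMIs). The helicase genes ranged from a log2 ratio of -0.15 for Mcm5 to 0.32 for Mcm2, with Mcm3 at 0.28, Mcm4 at 0.0035, Mcm6 at 0.02 and Mcm7 at -0.04. Among the enzymes of nucleotide supply Dut had the lowest ratio of the S members, at 18.0 CPM in WT and 14.2 CPM in VISTA KO cells (-0.34, -0.46 to -0.22), beside Tk1 (-0.22), Rrm1 (-0.12), Rrm2 (-0.09) and Tyms (-0.08). Gins2, a helicase cofactor, was at 0.11, and Uhrf1, which guides maintenance DNA methylation, at -0.29. None of the 14 was past 1.5-fold.

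Cells were clustered without any of these genes and named from marker lists, so the classes were not set by the members. NK cell-like and macrophage-like cells held more of the members' UMIs than their share of cells. In the WT library NK cell-like cells held 4.97% of the cells and 6.82% of the S and 8.06% of the G2 and M UMIs without Pttg1. In the VISTA KO library they held 2.56% of the cells and 4.45% and 4.22% of these UMIs. Macrophage-like cells held 14.2% of the WT cells and 19.0% of the G2 and M UMIs without Pttg1, and 28.9% of the VISTA KO cells and 37.3% of those UMIs. Monocyte-like cells held less than their share, 14.6% of those UMIs in 32.3% of the WT cells and 10.4% in 22.0% of the VISTA KO cells. The droplets with neutrophil and macrophage markers held 26.99% in 19.4% of the WT cells and 8.58% in 5.32% of the VISTA KO cells. That was more than their share of cells but less than their share of all UMIs, 35.7% and 11.4%. The cDC2-like cells held 5.79% in 5.04% of the WT cells and 6.64% in 4.93% of the VISTA KO cells. T cell-like cells held 6.59% in 1.04% of the WT cells, and only 11 such cells were in the VISTA KO library. Neutrophil-like cells, which have left the cell cycle, held 0.27% in 3.78% of the WT cells and 0.09% in 0.52% of the VISTA KO cells. The unnamed clusters held 9.72% in 15.9% of the WT cells and 27.3% in 32.3% of the VISTA KO cells.

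In macrophage-like cells the summed S members stood at 264.0 CPM in WT and 229.4 CPM in VISTA KO cells, a log2 ratio of -0.20 (-0.27 to -0.13). The G2 and M members stood at 369.9 and 229.1 CPM, a ratio of -0.69 (-0.76 to -0.63), and without Pttg1 at 298.5 and 208.0 CPM, a ratio of -0.52 (-0.59 to -0.45). When each library was clustered alone the S ratio was 0.039, on the other side of 0. By the 1.5-fold rule 17 of 43 members were lower and 0 higher, beside 4.86% of 11433 genes lower and 8.17% higher. At 2-fold 8 were lower and 0 higher, beside 210 genes lower and 347 higher of 11433. The class was made of different clusters in the libraries. The largest share of the WT cells came from a cluster led by Fcrls, Ccl8 and Folr2 (663 of 1449), and that of the VISTA KO cells from one led by H2-Eb1 and Cxcl9 (1964 of 4373). The summed macrophage markers were alike, at 21897 CPM in WT and 21741 CPM in VISTA KO cells.

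Among the macrophage-like members past 1.5-fold, Cdca3 stood at 10.8 CPM in WT (90 UMIs) and 4.18 CPM in VISTA KO cells (96 UMIs), a log2 ratio of -1.37 (-1.80 to -0.94). Aurka was at 4.21 and 1.70 CPM, Ccnb1 at 4.81 and 1.957 CPM and Hmmr at 6.86 and 3.22 CPM, each of the 3 with an interval wholly below 0. Birc5 stood at 24.9 CPM in WT and 12.05 CPM in VISTA KO cells, a ratio of -1.05 (-1.31 to -0.78). Other members lay near 0 in the same cells, among them Aurkb (0.0015), Nusap1 (0.05), Bub1b (0.12) and Cenpa (-0.10). Of the S members 12 of 14 lay below 0 and Uhrf1 alone was past 1.5-fold, at 7.94 CPM in WT (66 UMIs) and 3.70 CPM in VISTA KO cells (85 UMIs), a ratio of -1.10 (-1.58 to -0.62).

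The macrophage-like clusters differed widely in the levels of the members. In the Folr2 cluster the G2 and M members without Pttg1 stood at 391 CPM in WT and 296 CPM in VISTA KO cells (-0.40, -0.49 to -0.31), and the S members at 323.1 and 314.9 CPM (-0.04, -0.13 to 0.06). In the Cxcl9 cluster the same sums were 283 and 179 CPM (-0.66, -0.80 to -0.52) and 241.8 and 185.9 CPM (-0.38, -0.53 to -0.23). A cluster led by Ms4a7 and Tmem119 was low in both libraries, at 96.6 and 99.0 CPM of G2 and M members without Pttg1 (0.04, -0.28 to 0.37). A cluster led by Mmp12 and Gpnmb stood at 176.0 and 156.5 CPM (-0.17, -0.47 to 0.13). For this sum the interval lay below 0 in the Folr2 and Cxcl9 clusters and spanned 0 in the other 2. With Pttg1 counted, all 4 intervals lay below 0, at -0.71 (-0.96 to -0.46) in the Ms4a7 and -0.38 (-0.67 to -0.09) in the Mmp12 cluster. Without Pttg1, Smc4 and Cenpa the Mmp12 cluster was at -0.81 (-1.33 to -0.30) and the Ms4a7 cluster at -0.17 (-0.60 to 0.28).

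In monocyte-like cells the S members stood at 117.2 CPM in WT and 117.8 CPM in VISTA KO cells, a log2 ratio of 0.0069 (-0.09 to 0.11). The G2 and M members stood at 194.1 and 125.2 CPM, a ratio of -0.63 (-0.72 to -0.55), and without Pttg1 at 123.6 CPM (1911 UMIs) and at a lower level in VISTA KO cells (1340 UMIs), a ratio of -0.30 (-0.41 to -0.20). Without Pttg1, Smc4 and Cenpa the ratio was -0.70 (-0.85 to -0.54). Of 35 members with at least 20 UMIs, 13 were lower and 1 was higher by the 1.5-fold rule, beside 3.55% of 10815 genes lower and 10.3% higher. Of 18 members with at least 100 UMIs, 7 were lower and 0 higher, beside 161 genes lower and 492 higher of 8492. The 1 higher member, Tk1 (thymidine kinase), rests on 10 WT and 14 VISTA KO UMIs, with an interval of -0.58 to 2.02. Ccnb2 stood at 6.40 CPM in WT (99 UMIs) and 1.05 CPM in VISTA KO cells (14 UMIs), a ratio of -2.61 (-3.54 to -1.80), and Cenpf at 3.56 and 0.97 CPM, a ratio of -1.87 (-2.87 to -0.98). Macrophage markers summed to 2063 CPM in these WT and 4254 CPM in these VISTA KO cells, and their part in the differences was not tested.

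**Figure D2:**
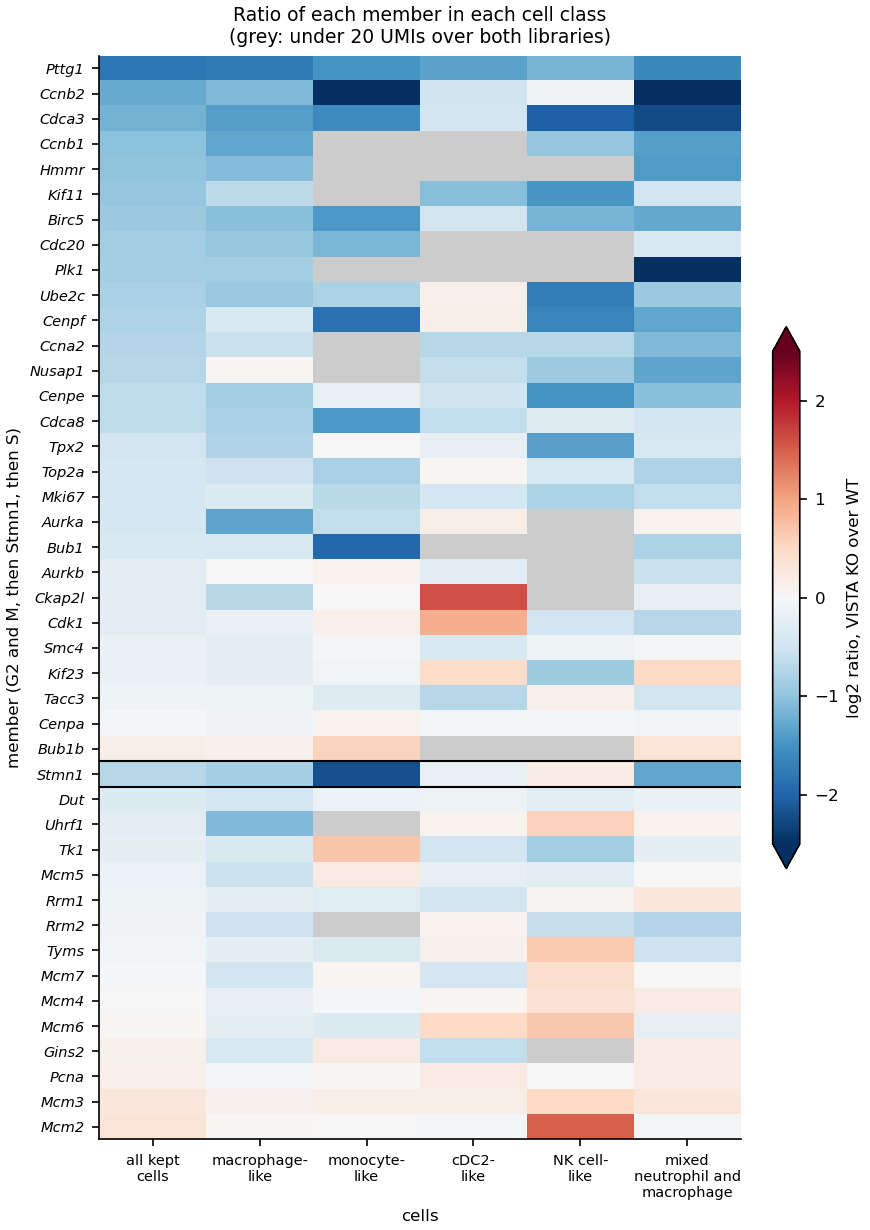
Log2 ratio (VISTA KO over WT) of each member in all kept cells and in 5 cell classes, blue lower and red higher in VISTA KO, grey where a member has under 20 UMIs over both libraries; rows run from the G2 and M members through Stmn1 to the S members. Pttg1 is blue in all 6 columns. Most S cells of the map are paler, but Uhrf1 is at -1.10 in macrophage-like cells and Mcm2 at 1.501 in NK cell-like cells.

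The monocyte-like clusters did not move alike. The widest difference was in a cluster led by Stxbp6 and Add3 that also carried Prtn3, a granule protease of immature myeloid cells. There the G2 and M members without Pttg1 stood at 257.4 CPM in WT and 123.9 CPM in VISTA KO cells (-1.05, -1.32 to -0.79), and the S members at 170.1 and 134.3 CPM (-0.34, -0.62 to -0.06). Ccnb2 held 59 UMIs in 41 of 342 WT cells and 5 UMIs in 5 of 327 VISTA KO cells of this cluster, 37.6 and 3.71 CPM (-3.34, -5.02 to -2.04). Mki67 held 39 and 7 UMIs (-2.26, -3.66 to -1.08) and Cdca8 held 23 and 1. Cdca3 held 20 and 0 UMIs, at least 2.52 lower on the log2 scale against a floor of 3 counts. Pcna held 99 and 89 UMIs in the same cells (0.07, -0.36 to 0.49), but the S members without Pcna were lower, at 107.0 and 68.2 CPM (-0.65, -1.03 to -0.27).

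In a cluster with Chil3 and Plac8 among its leading genes the G2 and M members without Pttg1 stood at 112.3 and 84.5 CPM (-0.41, -0.62 to -0.20), and in one with Vcan and Ifitm6 at 114.1 and 89.8 CPM (-0.34, -0.53 to -0.16). In the Vcan cluster Ccnb2 held 28 UMIs in WT and 0 in VISTA KO cells, at least 2.60 lower on the log2 scale against the floor. A cluster led by Ifit2 and Ifit3, interferon-induced genes, went the other way, at 76.2 CPM in WT and 111.1 CPM in VISTA KO cells (0.54, 0.27 to 0.83). Without Pttg1, Smc4 and Cenpa the sum was at -0.86 (-1.22 to -0.51) in the Chil3 and -0.98 (-1.30 to -0.66) in the Vcan cluster. In the Ifit cluster it was at 0.66 (0.23 to 1.11). With Pttg1 counted the Ifit cluster was not higher in VISTA KO cells, at 165.4 and 145.8 CPM (-0.18, -0.38 to 0.02). Mki67 held 5 WT and 36 VISTA KO UMIs in the Ifit cluster (1.33, -0.02 to 3.04). The Chil3 and Vcan clusters held most of the WT monocyte-like cells (1400 and 1200 of 3292), and the Ifit and Vcan clusters most of the VISTA KO ones (1236 and 899 of 3332). The difference between the clusters was not tested.

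**Figure D3:**
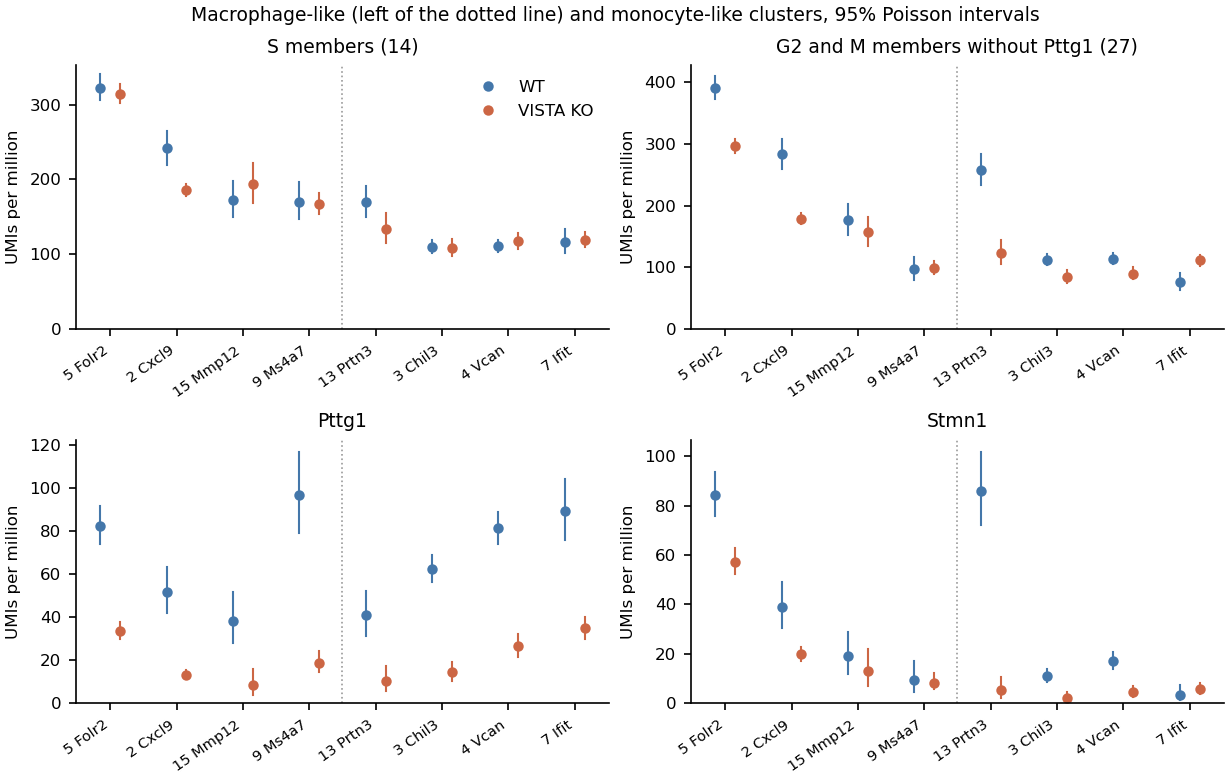
Summed S members, summed G2 and M members without Pttg1, Pttg1 and Stmn1 in the 4 macrophage-like clusters (left of the dotted line) and the 4 monocyte-like clusters, in CPM with 95% Poisson intervals, WT in blue and VISTA KO in red, each axis from 0. Pttg1 is lower in VISTA KO in all 8 clusters, and Stmn1 in the Prtn3 cluster is at 86.0 against 5.19 CPM.

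NK cell-like cells had high levels of both groups of genes. The S members stood at 555.6 CPM in WT and 616.9 CPM in VISTA KO cells (0.15, -0.0016 to 0.30), an interval that just spanned 0. Without Pcna they stood at 440.2 and 501.0 CPM (0.19, 0.02 to 0.36). The G2 and M members without Pttg1 stood at 769.5 and 505.6 CPM (-0.61, -0.76 to -0.45). Of 34 members measured 14 were lower and 3 higher, beside 4.7% of 7623 genes lower and 14.4% higher. Of 10 with at least 100 UMIs, 2 were lower and 1 higher, beside 43 genes lower and 165 higher of 3218. The 3 higher ones of the 34, a share not above that of all genes, were the S members Mcm2, Mcm6 and Tyms. Mcm2 stood at 13.9 and 39.3 CPM (19 and 42 UMIs) and Mcm6 at 48.9 and 78.5 CPM. Tyms stood at 19.0 and 29.9 CPM, with an interval from -0.14 to 1.46. Of the G2 and M members Ube2c stood at 40.2 and 12.15 CPM (55 and 13 UMIs), Cenpf at 32.1 and 10.3 CPM and Kif11 at 20.4 and 7.48 CPM. Ccnb2, low in VISTA KO macrophage-like and monocyte-like cells, held 15 and 11 UMIs here (-0.09, -1.36 to 1.13).

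Type 2 dendritic cell-like cells (cDC2-like, led by Cd209a) showed small differences. The S members stood at 213.7 CPM in WT and 215.7 CPM in VISTA KO cells (0.01, -0.14 to 0.17), and the G2 and M members without Pttg1 at 259.6 and 223.3 CPM (-0.22, -0.36 to -0.07). Of 37 members measured 7 were lower and 2 higher, beside 5.03% of 9106 genes lower and 9.86% higher. Both higher ones rest on few counts, Cdk1 with 9 and 22 UMIs and Ckap2l with 4 and 16. With at least 100 UMIs 1 member of 9, Pttg1, was lower and 0 higher, beside 103 genes lower and 280 higher of 5479. At 2-fold 2 were lower and 1 higher, beside 137 genes lower and 240 higher of 9106. Except for Pttg1, no cDC2-like member past the rule had an interval that left out 0.

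In the droplets with both neutrophil and macrophage markers the S members stood at 150.8 CPM in WT and 161.8 CPM in VISTA KO droplets (0.10, 0.01 to 0.19), and the G2 and M members without Pttg1 at 160.2 and 119.7 CPM (-0.42, -0.52 to -0.32). Here 18 of 43 members were lower and 0 higher, beside 4.33% of 11446 genes lower and 7.85% higher. Of 27 with at least 100 UMIs, 9 were lower and 0 higher, beside 174 genes lower and 379 higher of 9127. Plk1 held 38 UMIs in WT and 1 in VISTA KO droplets (-3.99, -9.33 to -1.42). Neutrophil markers summed to 12364 CPM in these WT and 9373 CPM in these VISTA KO droplets, and their part in the differences was not tested. The T cell-like and fibroblast-like clusters were small but dense in these RNAs. The G2 and M members without Pttg1 reached 2078 CPM in 106 WT T cell-like cells and 2517 CPM in 19 WT fibroblast-like cells, and 946 CPM in 28 VISTA KO fibroblast-like cells.

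Pttg1 stood apart from the other G2 and M members in where its RNA was found. It was lower in VISTA KO cells in each of the 8 macrophage-like and monocyte-like clusters, with log2 ratios from -1.29 in the Folr2 cluster to -2.36 in the Ms4a7 cluster. Neutrophil markers summed to 373 CPM in WT and 326 CPM in VISTA KO macrophage-like cells, and to 544 and 530 CPM in monocyte-like cells. It was also lower in cDC2-like cells (72.6 and 28.6 CPM), NK cell-like cells (69.4 and 30.8 CPM) and the mixed neutrophil and macrophage droplets (99.4 and 32.5 CPM). In neutrophil-like cells it stood at 244.7 CPM in WT (120 UMIs) and 139.3 CPM in VISTA KO cells (15 UMIs), although 14 WT and 2 VISTA KO UMIs of Pcna and 0 of Mki67 were counted there. After each cell was thinned to 1000 UMIs, 21.1% of the WT neutrophil-like cells held a Pttg1 UMI, beside 8.04% of all WT cells, and 12.3% beside 2.11% in the VISTA KO library. That depth left out 96 and 14 neutrophil-like cells and 561 and 1561 cells in all. Without thinning the shares were 22.6% beside 32.4% in WT and 12.7% beside 9.86% in VISTA KO. The Pttg1 level therefore did not follow the other members across classes.

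Stmn1 varied most among the monocyte-like clusters. In the Prtn3 cluster it held 135 UMIs in 63 of 342 WT cells and 7 UMIs in 6 of 327 VISTA KO cells, 86.0 and 5.19 CPM, a log2 ratio of -4.05 (-5.39 to -2.97). No WT cell of that cluster held more than 6 of these UMIs, so the WT count was spread over cells. In the Chil3 cluster Stmn1 stood at 11.03 and 2.24 CPM and in the Vcan cluster at 17.1 and 4.38 CPM, again lower in VISTA KO cells. In the Folr2 cluster it stood at 84.4 and 57.3 CPM (-0.56, -0.76 to -0.36). The Ifit cluster, with 6 and 28 UMIs (0.70, -0.60 to 2.27), and NK cell-like cells, at 200.8 and 229.0 CPM (0.19, -0.06 to 0.44), did not show a lower level.

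Counted per cell, most cells held few of these RNAs. In the WT library 4602 of 10193 cells and in the VISTA KO library 8866 of 15140 cells held no UMI of any G2 and M member. Cells with at least 8 of the 28 G2 and M members, called many-member cells here, numbered 156 in WT (1.53%, 1.30 to 1.79) and 104 in VISTA KO (0.69%, 0.56 to 0.83). The count of 8 was chosen after the distribution was seen. It sets a range of values and not a type of cell: 47 WT and 38 VISTA KO cells held 6 or 7 members, 32 and 23 held 8 or 9, and 101 and 62 held 13 or more. The median depth of many-member cells was 11855.5 UMIs in the WT and 10381 UMIs in the VISTA KO library, beside 4651 and 4194 UMIs for the remaining cells. With the same mix of clusters in both libraries the difference of -0.84 percentage points was -0.85, and without cells above the 95th percentile of UMIs it was -0.64.

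**Figure D4:**
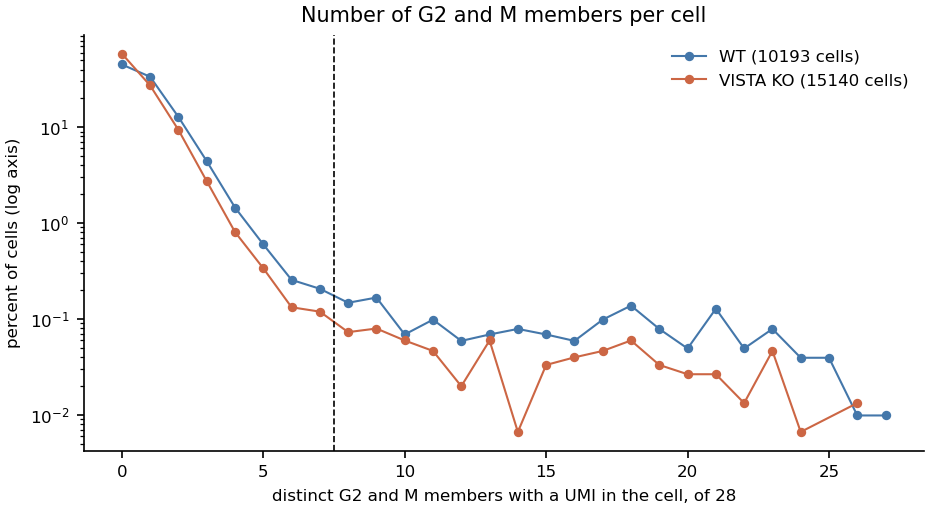
Percent of cells (log axis) by the number of distinct G2 and M members with a UMI in the cell, WT in blue and VISTA KO in red, with no point where no cell had that number; the dashed line marks the cut at 8 members. Both curves drop steeply to about 7 members and then run flat to 27 members in WT and 26 in VISTA KO, with the VISTA KO curve mostly below the WT curve.

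These few cells held more of the members' UMIs than of all UMIs. They held 3.34% of all WT UMIs and 1.58% of all VISTA KO UMIs. Of the G2 and M UMIs, by which the cells were chosen, they held 37.2% in WT and 25.9% in VISTA KO, or 50.4% and 28.3% without Pttg1. Of the S UMIs they held 16.9% and 8.99%. For each G2 and M member the cut of 8 was read on the other 27, so that a member's own UMIs did not choose the cells. Over the G2 and M members the median share of a member's UMIs in them was 64.8% in WT and 42.2% in VISTA KO, with Hmmr highest at 90.1% and 65.6% and Pttg1 lowest at 2.65% and 8.32%. Over the S members, which the rule did not use at all, the median share was 21.7% in WT and 11.4% in VISTA KO, from Pcna (7.47% and 4.73%) to Rrm2 (61.8% and 46.8%). Stmn1, also not used, had 53.0% and 44.7% of its UMIs there.

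The levels of the G2 and M members inside and outside these cells are a description only, since the split was made on the same members and so sets their levels in part. Inside the many-member cells the G2 and M members without Pttg1 stood at 3196 CPM in WT and 2868 CPM in VISTA KO cells (-0.16, -0.21 to -0.10), and outside them at 108.8 and 116.3 CPM (0.10, 0.05 to 0.14). With Pttg1 the value outside was -0.47 (-0.51 to -0.43). The S members stood at 915 and 1053 CPM inside (0.20, 0.10 to 0.30) and 155.4 and 170.9 CPM outside (0.14, 0.10 to 0.18). In macrophage-like cells the G2 and M values outside were 128.1 and 126.2 CPM (-0.02, -0.13 to 0.08), and in monocyte-like cells 97.3 and 98.0 CPM (0.01, -0.10 to 0.12). The values inside were not alike across classes. They were 3557 and 4050 CPM in macrophage-like cells (0.19, 0.09 to 0.29), whereas the VISTA KO level was the lower one for NK cell-like cells (-0.52, -0.72 to -0.32), monocyte-like cells (-0.95, -1.55 to -0.41, with 2 VISTA KO cells) and the mixed neutrophil and macrophage droplets (-0.98, -1.29 to -0.69, with 5). Outside the many-member cells the Prtn3 cluster was at 203.2 CPM in WT and 115.3 CPM in VISTA KO cells (-0.82, -1.10 to -0.53).

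Some members were lower outside the many-member cells as well, with the cut again read on the other 27 members where the gene is one of the 28. Pttg1 stood at 82.3 CPM in WT and 21.7 CPM in VISTA KO cells outside (-1.92, -2.002 to -1.84), and at 71.2 and 138.5 CPM inside (0.96, 0.62 to 1.31), the opposite direction. Ccnb2 stood at 3.03 and 1.25 CPM outside (-1.27, -1.64 to -0.91) and 105.8 and 92.97 CPM inside (-0.19, -0.53 to 0.15). Stmn1 stood at 17.1 and 12.1 CPM outside (-0.50, -0.63 to -0.37), with a wider difference in monocyte-like cells (16.8 and 4.11 CPM) and the other direction in NK cell-like cells (41.1 and 111.3 CPM). Bub1b held 117 and 241 UMIs outside (0.64, 0.31 to 0.97). For Mki67 the values outside were 5.805 and 6.97 CPM and inside 288.6 and 255.6 CPM.

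By class, many-member cells made up 2.83% of the WT (41 of 1449) and 1.14% of the VISTA KO macrophage-like cells (50 of 4373). Within that class the Folr2 cluster had the higher shares, 4.52% (3.07 to 6.40) and 2.60% (1.83 to 3.58), whose intervals overlap. The Cxcl9 cluster had 2.61% (1.13 to 5.07) and 0.71% (0.39 to 1.19), and the Ms4a7 cluster had 0 of 232 and 0 of 810 cells, which allows shares of up to 1.29% and 0.37% (3 counts of the total). In monocyte-like cells there were 15 in WT (0.46%, 0.25 to 0.75) and 2 in VISTA KO (0.06%, 0.0073 to 0.22). In the mixed neutrophil and macrophage droplets there were 39 (1.97%) and 5 (0.62%), in NK cell-like cells 14 (2.76%) and 7 (1.80%), and in cDC2-like cells 10 (1.95%) and 11 (1.47%). The unnamed clusters held 13 of the 156 WT and 21 of the 104 VISTA KO many-member cells. Neutrophil-like cells held 0 of 385 and 0 of 79, which allows up to 0.78% and 3.80% by the same limit. No many-member cell carried a barcode that occurs in both libraries.

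**Figure D5:**
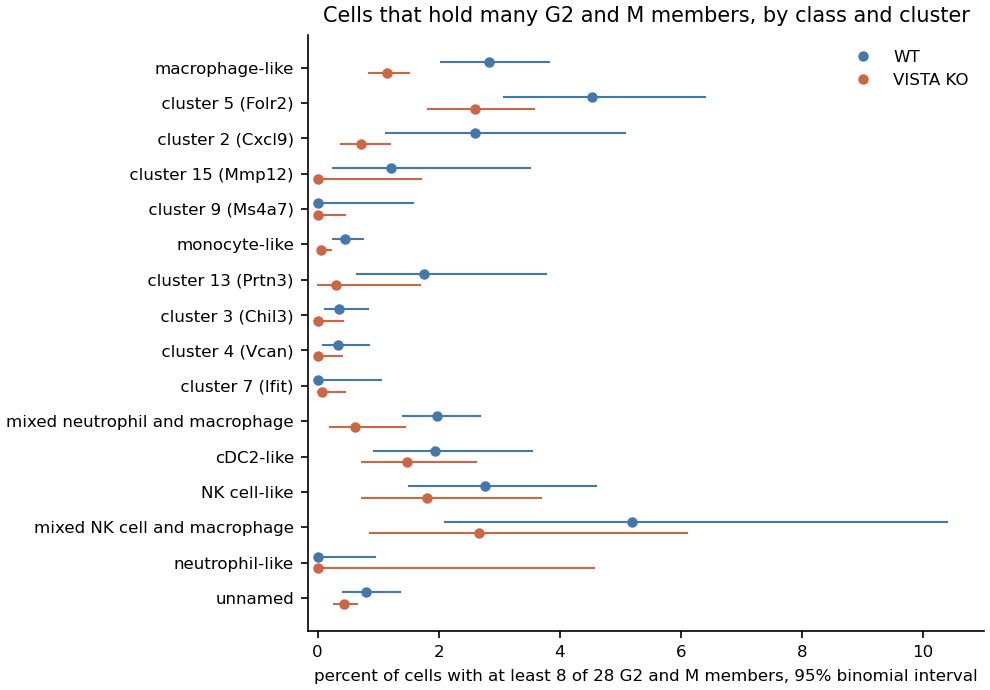
Percent of cells with at least 8 of 28 G2 and M members in each class and in the macrophage-like and monocyte-like clusters, WT in blue and VISTA KO in red, with 95% binomial intervals. The Folr2 cluster has 4.52% in WT and 2.60% in VISTA KO, while the Ms4a7 and neutrophil-like rows are at 0 in both libraries.

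Depth differs between cells, so cells were also thinned to 2000 UMIs each, leaving out 1593 WT and 3096 VISTA KO cells below that depth. Of the thinned cells 190 of 8600 in WT (2.21%, 1.91 to 2.54) and 118 of 12044 in VISTA KO (0.98%, 0.81 to 1.17) held at least 3 G2 and M members, a difference of -1.23 percentage points. Weighted to the same mix of clusters the difference was -0.47, and without thinning, at the same cut, -3.65. For at least 3 S members the shares were 1.21% (104 cells) and 0.86% (103 cells). In macrophage-like cells 3.81% (51 of 1338) and 1.57% (62 of 3957) held at least 3 G2 and M members, and in monocyte-like cells 1.18% (37 of 3135) and 0.17% (5 of 3004). In NK cell-like cells the G2 and M shares were 6.25% and 3.07%, and the S shares 6.25% and 7.28%, each with overlapping intervals. No thinned neutrophil-like cell (0 of 17 and 0 of 3) held 3 G2 and M members, too few cells to give a background level at this depth.

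Genes and tags that the cell rule did not use were compared between many-member cells and all other cells of the same library. Cells with at least 6 of 14 S members numbered 163 of 10193 in WT and 143 of 15140 in VISTA KO, a lower share in VISTA KO. Of these cells 61 and 41 were also many-member cells. Of 55 other G2 and M genes listed, 48 were over 2-fold higher in the many-member cells of both libraries, with a median fold of 24.6 in WT and 23.8 in VISTA KO, beside 5.84% of 11471 genes of the same minimum of 100 UMIs and medians of 1.07 and 1.05. All 12 replication histone genes were over 2-fold higher in both, with medians of 13.2 and 14.4, though histone genes have near-identical copies that can share reads. Of 41 other S genes 36 were, with medians of 4.74 and 5.10. Of 32 G1 and control genes 9 were, with medians of 1.64 and 1.67. Foxm1, a transcription factor of G2 and M genes, stood at 17.9 CPM inside and 0.27 CPM outside in WT cells, whereas Cdkn1a, the p21 inhibitor of cyclin kinases, was lower inside, at 502.4 and 811.0 CPM.

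The Ly6C tag and the monocyte marker sum were lower in macrophage-like many-member cells than in the other macrophage-like cells of both libraries. The median Ly6C tag count was 269 inside and 883 outside in WT, and 215.5 and 868 in VISTA KO, although the cells inside had more RNA UMIs. Monocyte markers summed to 3741 and 8075 CPM in WT, and 3554 and 8012 CPM in VISTA KO. Macrophage markers over the class went in opposite directions, at 22219 and 21881 CPM in WT and 20918 and 21759 CPM in VISTA KO. Median CD11c tag counts were 25 inside and 18 outside in WT, and 19.5 and 18 in VISTA KO. Those of Ly6G were 8 and 7 in WT, and 4 and 5 in VISTA KO. The cluster mix also differed: the Folr2 cluster gave 30 of 41 WT and 36 of 50 VISTA KO many-member cells, but 633 of 1408 and 1349 of 4323 of the others. Within the Folr2 cluster the median Ly6C tag count was 277 inside and 837 outside in WT and 215 and 734 in VISTA KO, so the cells inside were lower there too. Their macrophage markers were also lower in that cluster, at 26046 and 30481 CPM in WT and 25476 and 33086 CPM in VISTA KO.

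The other genes of the pathway, from lists of 36 G1 and control, 42 other S, 63 other G2 and M and 12 replication histone genes, were counted over all kept cells by the same rule. Of the other S genes 0 were higher and 0 lower by the 1.5-fold rule, with a median log2 ratio of 0.02. Of the 63 other G2 and M genes 19 were lower, beside the 6.35% of all genes, among them Prc1, a spindle midzone protein, at 4.89 CPM in WT and 3.20 CPM in VISTA KO cells. One, Espl1, the separase that Pttg1 inhibits, was higher, at 6.45 and 10.0 CPM (0.64, 0.46 to 0.82). The median of that list was -0.33. Of the 36 G1 and control genes 2 were lower, Cdc25b and Cdc25c, and 0 were higher. That share was not above the 6.35% of all genes lower. Of the 12 histone genes 3 were lower and 1, Hist1h2ap, was higher, at 1.93 and 8.42 CPM. Of all genes 7.65% were higher, so single higher genes in these lists were no more than near that share.

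In macrophage-like cells 25 of 61 measured other G2 and M genes were lower and 3 higher, and 10 of 41 other S genes were lower and 0 higher, with medians of -0.42 and -0.23, beside the 4.86% of all genes lower and 8.17% higher. The S genes there included Cdc6, a helicase loader, at 3.25 CPM in WT and 1.91 CPM in VISTA KO cells (-0.76, -1.49 to -0.02). In monocyte-like cells 4 of 32 other G2 and M genes were lower and 2 higher, and 1 of 33 other S genes was lower and 5 higher. Of all genes in these cells 3.55% were lower and 10.3% higher, so few of the higher S genes lie beyond the share of all genes. Of 28 G1 and control genes 3 were higher there, E2f1, E2f8 and Cdkn1c, a share near the 10.3% of all genes. In NK cell-like cells 5 of 31 other S genes were higher and 1 lower, near the 14.4% and 4.7% of all genes, while 6 of 11 histone genes were lower and 1 higher, with a median of -0.77.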

How the data were processed

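The deposited matrices hold whole-number UMI counts per gene and cell barcode, written by cellranger 5.0.0 per the file headers, with the antibody tag counts in the same deposited form. The submitters' processing notes name Cell Ranger, Seurat 4.0 and the build mm10. The counts are 3' counts and are not divided by gene length, so levels of different genes were not ranked. Cells with at least 200 genes, at least 500 UMIs and at most 10% mitochondrial UMIs were kept. Both libraries were clustered together with scikit-learn 1.9.0, igraph 0.11.9 and leidenalg 0.10.2, on 2000 variable genes per library, 30 principal components, 15 neighbours and a Leiden resolution of 1, with the cell cycle genes left out, which gave 22 clusters. A cluster was named from 18 marker lists where at least 3 markers were 1.5-fold higher and found in 20% of its cells. Clusters of other types counted as mixed if 60% of their cells held a UMI of each of 3 or more macrophage markers, marker by marker. A cluster stayed unnamed where its leading genes held more markers of another type. It also stayed unnamed where the median depth of its cells was under 1/3 of the library median and no marker of its own type was among the leading genes. These thresholds were set after the clusters were seen. No doublet caller was run, and mixed clusters were kept apart. The libraries share 47 barcodes, of which 46 were kept in each.

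UMIs were summed per library and cell set and divided by all UMIs of that set. Intervals are exact (Poisson for levels, Clopper-Pearson for shares, conditional binomial for ratios, scipy 1.17.1), at 95%. They cover counting error only. With 1 library per group no p-value was computed. Ratios have no pseudocount, and a gene at 0 in 1 library was taken at a floor of 3 counts in that library. All 43 members could be named, and of other genes only those of the lists. The members, lists and cut of 8 members were chosen with earlier results of these data known. Promoter sequences are from RefSeq (GRCm38.p6). The labels do not say which part of Vsir was deleted.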

Additional observations from a re-analysis of the deposited data

Results flagged for a closer look

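The summed G2 and M members without Pttg1 went in opposite directions in the monocyte-like clusters. The log2 ratio (VISTA KO over WT) was -0.41 in the Chil3 cluster, -0.344 in the Vcan cluster and -1.05 in the Prtn3 cluster, and 0.545 in the Ifit cluster, with each counting interval on its own side of 0. With Pttg1 counted the Ifit cluster was at -0.18, with an interval that spanned 0. The summed S members were lower in VISTA KO macrophage-like cells, at -0.202, and higher in the mixed neutrophil and macrophage droplets, at 0.101, and in the mixed NK cell and macrophage droplets, at 0.262. With 1 library per group, these differences between cell sets were not tested.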

How the results depend on the processing

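No paired analysis was possible because WT and VISTA KO are single libraries, and no replicate could be left out. The G2 and M ratios and cell shares kept their direction under the alternatives run. The S ratios, which lie near 0, did not. The cause of each change was not tested. The alternatives on left-out members or cell classes, and those on the cut of 8, were chosen after seeing the data. Where the NK cell, T cell and fibroblast clusters were left out, the mixed NK cell and macrophage cluster was left out with them. The S ratio over all kept cells (0.03) became -0.046 when scaled by the median gene ratio, -0.0039 with the same cluster mix, -0.037 without Pcna, 0.12 without the NK cell, T cell and fibroblast clusters, and -0.071 without the mixed neutrophil and macrophage cluster. In macrophage-like cells the S ratio (-0.20) became 0.039 with each library clustered alone and -0.29 without Pcna. The G2 and M ratio over all kept cells (-0.68) became -0.65 without cells above the 95th percentile of UMIs, -0.76 under median scaling and -0.41 without Pttg1. It became -0.60 without Pttg1, Smc4 and Cenpa, and -0.55 without the NK cell, T cell and fibroblast clusters. Without the mixed neutrophil and macrophage cluster it was -0.74. In macrophage-like cells (-0.69) it became -0.76 with the stricter cell filter, -0.62 with the same cluster mix, -0.46 with each library clustered alone, -0.61 with cell cycle genes kept in the clustering, -0.56 with genes over 4-fold different kept out of it, and -0.52 without Pttg1. In monocyte-like cells (-0.63) the values were -0.73 with the stricter filter, -0.75 with each library clustered alone, -0.75 with cell cycle genes kept and -0.30 without Pttg1. Without Pttg1, Smc4 and Cenpa the values were -0.67 in macrophage-like and -0.70 in monocyte-like cells. The difference in cells with at least 3 G2 and M members (-1.23 points) became -2.39 for at least 2 members, -0.71 for at least 5, -0.56 after thinning to 1000 UMIs, -3.65 without thinning and -0.47 with the same cluster mix. That for at least 8 members (-0.84) ranged from -1.05 to -0.64. At 2-fold the members lower in VISTA KO were 4 over all kept cells, 8 in macrophage-like, 2 in cDC2-like and 8 in NK cell-like cells, and those higher were 0 in monocyte-like, 1 in cDC2-like and 1 in NK cell-like cells. In the same order the genes lower at 2-fold were 405 of 13656, 210 of 11433, 137 of 9106 and 91 of 7623. Those higher were 326 of 10815, 240 of 9106 and 342 of 7623. With at least 100 UMIs the lower ones were 7 in monocyte-like, 1 in cDC2-like and 2 in NK cell-like cells and 9 in the mixed neutrophil and macrophage droplets, and the higher ones 0, 0 and 1 in the first 3. Clusters 6 and 19 were over 90% from 1 library, lay outside the macrophage-like and monocyte-like classes, and leaving them out left those values as they were.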
